A study of Mus musculus and Sus scrofa with 12 samples.

Results

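In forelimbs of wild-type mouse embryos at E11.5, 5234 regions carried histone H3 acetylated at lysine 27 (H3K27ac) away from promoters and without the enhancer mark H3K4me1. They were chosen by position in the deposited peak lists. Each is an H3K27ac peak that shared no base with any mouse H3K4me1 or H3K4me3 peak and lay over 1 kb from every transcription start site (TSS) of the RefSeq annotation of GRCm38. They made up 5234 of 20875 mouse H3K27ac peaks, and 51.9% (95% interval 50.9 to 52.9) of the 10088 H3K27ac peaks that met the same demands on H3K4me3 and TSSs. The other 4854 such peaks overlapped H3K4me1 and serve as the comparison throughout. They are called distal peaks with H3K4me1 below, and the 5234 are called acetylation-alone peaks. Because H3K4me1, H3K4me3 and TSS distance selected the regions, their values for those 3 properties are descriptions and carry no test.

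The study mapped H3K27ac, H3K4me1 and H3K4me3 by ChIPmentation, in which a transposase adds sequencing adapters to chromatin held on the antibody. Forelimbs were taken from naturally bred wild-type mouse embryos (E11.5) and pig embryos (day 23 of gestation), and littermates served as biological replicates. The labels give 2 samples for each of the 6 pairs of species and mark, and 1 consensus peak list was deposited for each pair. For pig H3K4me1 the design text gives a single biological replicate. The lists hold positions without scores, so there is no value per replicate, no depth and no spread between animals behind any number here. All intervals are 95% intervals, Wilson's for a share and Newcombe's for a difference of shares. They cover counting error only, they were not adjusted for the number of quantities compared, and neighbouring peaks of one locus are not independent of each other.

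H3K27ac is deposited by the acetyltransferases p300 and CBP at active promoters and enhancers. H3K4me1, written mainly by the methyltransferases Kmt2c and Kmt2d, spreads over enhancers that are active or poised and over the flanks of promoters, and H3K4me3 sits on promoters. A distal H3K27ac peak is usually read as an active enhancer when H3K4me1 lies on it too, so peaks with the acetylation alone are the less familiar class. In the early limb bud enhancers are known around patterning genes of the Shh, FGF, BMP and Wnt pathways and around the cartilage regulators Sox9, Sox5 and Sox6. A whole limb bud holds several cell types, and a mark in few cells cannot be told apart from a weak mark in many.

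The tissue carried the promoter acetylation of a forelimb. H3K4me3 and H3K27ac lay at a TSS of Tbx5, the forelimb selector, and of the limb mesenchyme genes Prrx1, Hand2 and Lhx9. H3K27ac was absent from the TSSs of all 6 genes listed for the hindlimb, Pitx1, Tbx4 and Isl1 among them, although 5 of the 6 had H3K4me3. Of 37 limb mesenchyme genes 33 had H3K27ac at a TSS, against 0 of 8 heart genes, 0 of 10 neuron genes and 1 of 8 liver and gut genes. All 14 housekeeping genes had it too, and the share over all coding genes is not given here. H3K4me3 lay at a TSS of all 37 limb mesenchyme genes, 8 of 10 neuron, 2 of 8 heart and 1 of 8 liver and gut genes. Of lists for other cells of the limb bud, H3K27ac was at a TSS of 6 of 10 muscle precursor genes, 3 of 11 endothelial, 3 of 11 ectoderm, 3 of 10 blood and 1 of 8 neural crest genes.

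Sequences of 7 acetylation-alone peaks show what these regions are made of. The lines give 300 bases of the plus strand of GRCm38, read 5′ to 3′ from the RefSeq genome, and 1 line gives the pig counterpart. Sox5 and Gas1 are shown as the widest acetylation-alone peaks nearest to those limb genes, with capitals on TGACAG or its reverse complement, the core letters of MEIS sites. Twist1 has no pig match at the limit used, and its capitals mark GGTGTG or its reverse complement, the T-box core. Cd109 has one of the 2 highest observed-to-expected ratios of CpG among the acetylation-alone peaks, with every CpG in capitals. Sox9 and Hoxa11 are shown because their pig counterpart also lay under pig H3K27ac, and capitals mark the bases that aligned to pig. The pig line, on the minus strand of Sscrofa11.1, is the stretch that aligned to the Sox9 peak, and all of it is in capitals. Hbb-y is shown because it lay among the peaks farthest from any H3K4me1. Its line has no capitals, since AGATAA, the core of sites for GATA factors, is not in this window. Each line marks 1 feature only: the Hbb-y window also holds 1 TGACAG, and the Gas1 window holds 2 matches to AGATAA, all unmarked.
Sox5, chr6:144056135-144056434: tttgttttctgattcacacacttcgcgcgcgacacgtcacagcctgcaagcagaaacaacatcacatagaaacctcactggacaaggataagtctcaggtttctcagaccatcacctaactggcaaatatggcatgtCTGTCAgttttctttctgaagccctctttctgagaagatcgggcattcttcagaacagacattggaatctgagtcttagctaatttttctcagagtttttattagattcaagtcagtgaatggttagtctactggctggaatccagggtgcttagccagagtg
Gas1, chr13:60379265-60379564: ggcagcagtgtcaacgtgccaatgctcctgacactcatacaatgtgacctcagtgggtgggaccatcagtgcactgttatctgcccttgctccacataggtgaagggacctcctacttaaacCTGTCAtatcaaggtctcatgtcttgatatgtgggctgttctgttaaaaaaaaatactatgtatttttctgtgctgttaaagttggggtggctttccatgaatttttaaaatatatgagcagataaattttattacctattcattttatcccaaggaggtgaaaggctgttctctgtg
Twist1, chr12:33990932-33991231: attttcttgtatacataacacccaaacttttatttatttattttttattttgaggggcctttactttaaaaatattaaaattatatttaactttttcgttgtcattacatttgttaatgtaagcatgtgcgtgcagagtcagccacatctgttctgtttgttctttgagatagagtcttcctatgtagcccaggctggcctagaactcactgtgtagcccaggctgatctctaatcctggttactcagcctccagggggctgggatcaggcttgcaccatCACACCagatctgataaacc
Cd109, chr9:78743632-78743931: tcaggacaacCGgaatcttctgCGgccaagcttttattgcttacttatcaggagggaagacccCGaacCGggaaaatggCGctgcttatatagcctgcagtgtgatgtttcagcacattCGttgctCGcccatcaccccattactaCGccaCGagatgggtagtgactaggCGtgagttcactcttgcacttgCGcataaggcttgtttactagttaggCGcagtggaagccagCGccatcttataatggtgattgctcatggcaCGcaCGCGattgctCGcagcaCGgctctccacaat
Sox9, chr11:112631478-112631777: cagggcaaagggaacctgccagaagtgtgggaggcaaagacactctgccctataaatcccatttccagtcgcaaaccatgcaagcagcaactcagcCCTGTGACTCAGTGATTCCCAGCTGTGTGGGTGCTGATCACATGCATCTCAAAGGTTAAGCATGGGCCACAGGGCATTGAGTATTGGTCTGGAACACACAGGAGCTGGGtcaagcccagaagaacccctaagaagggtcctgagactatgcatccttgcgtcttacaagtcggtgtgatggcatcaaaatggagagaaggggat
Sox9 in pig, chr12:8782237-8782345: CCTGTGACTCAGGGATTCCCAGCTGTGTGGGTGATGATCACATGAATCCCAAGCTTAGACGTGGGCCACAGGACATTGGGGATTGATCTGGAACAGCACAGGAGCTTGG
Hoxa11, chr6:52253262-52253561: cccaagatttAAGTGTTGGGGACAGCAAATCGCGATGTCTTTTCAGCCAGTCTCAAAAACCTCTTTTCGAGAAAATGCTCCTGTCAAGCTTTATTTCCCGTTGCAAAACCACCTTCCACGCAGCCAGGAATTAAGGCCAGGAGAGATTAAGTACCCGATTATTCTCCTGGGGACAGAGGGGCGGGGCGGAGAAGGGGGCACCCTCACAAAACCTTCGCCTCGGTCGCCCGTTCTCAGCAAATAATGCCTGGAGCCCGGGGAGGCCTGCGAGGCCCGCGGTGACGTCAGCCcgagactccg
Hbb-y, chr7:103860198-103860497: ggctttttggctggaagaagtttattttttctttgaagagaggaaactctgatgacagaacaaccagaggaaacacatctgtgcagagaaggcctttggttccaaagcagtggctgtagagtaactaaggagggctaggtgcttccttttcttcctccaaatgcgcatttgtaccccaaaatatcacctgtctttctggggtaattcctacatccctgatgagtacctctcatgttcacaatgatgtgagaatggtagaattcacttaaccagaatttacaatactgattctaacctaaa

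Acetylation-alone peaks were narrow. Their median width was 2044 bp (quartiles 1128 and 3184, range 200 to 9158), against 3149 bp (2104 and 4141) for distal peaks with H3K4me1. Of the acetylation-alone peaks 21.4% were under 1000 bp and 28.6% over 3000 bp, against 7.70% and 53.6%. When the 10088 distal peaks were placed in 10 equal groups by width, the share without H3K4me1 fell at every step, from 75.5% (72.8 to 78.1) at 200 to 752 bp to 29.5% (26.7 to 32.4) at 4635 bp and more. A wide peak has more bases on which an overlap can fall, so width and the rule are linked, and the lists hold no score that would separate width from peak strength. Between chromosomes the share without H3K4me1 ranged from 47.9% (44.1 to 51.7) on chromosome 4 to 57.7% (52.4 to 62.8) on chromosome 16. For comparison, 21.6% of the 9754 mouse H3K27ac peaks within 1 kb of a TSS lacked H3K4me1, and so did 27.7% of the 15639 pig distal H3K27ac peaks. The pig H3K4me1 list is longer, with 103373 peaks against 69962 in mouse, so the shares of the 2 species were not tested against each other.

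**Figure D1:**
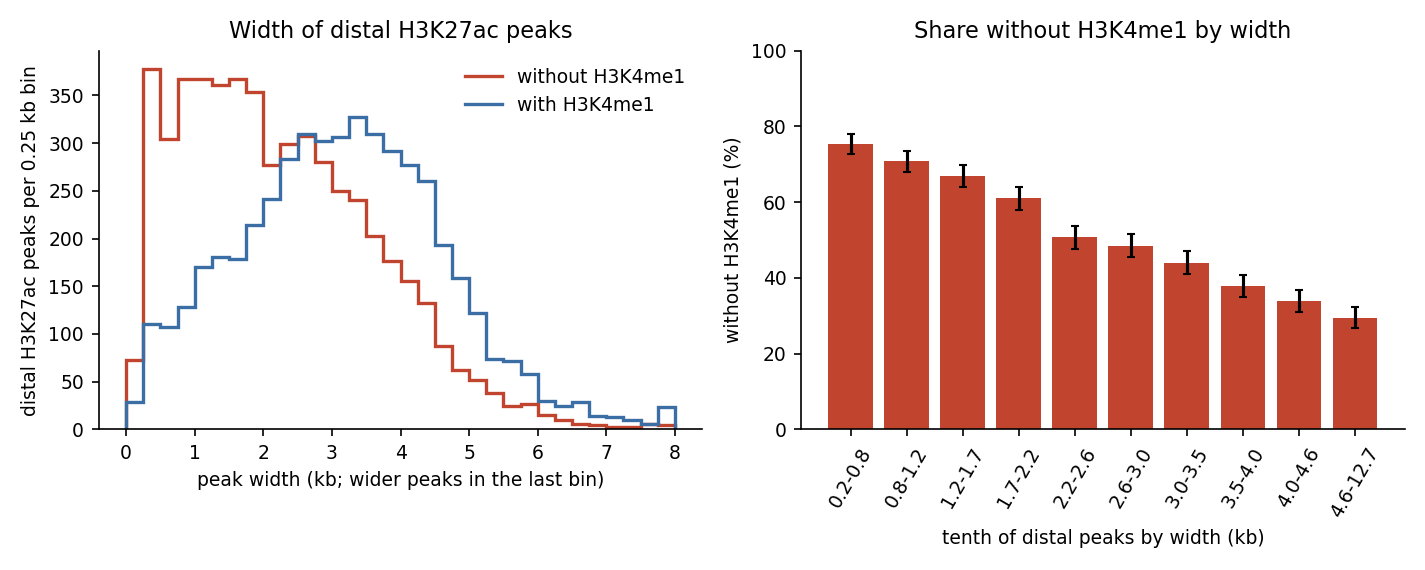
The left panel plots the number of mouse distal H3K27ac peaks (y axis, peaks per bin of 0.25 kb) against peak width (x axis, kb) without H3K4me1 (red) and with it (blue). The right panel plots the percentage without H3K4me1 (y axis, with 95% Wilson intervals) in 10 equal groups by width (x axis, kb), which falls from 75.5% in the narrowest to 29.5% in the widest.

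The widest acetylation-alone peak covered 9158 bp at chr4:46585050-46594207, in an intron of Coro2a, which encodes an actin-binding coronin, 12.3 kb downstream of its TSS. The next 4 in width were nearest to Lrrk1, a protein kinase gene, with 7899 bp, to the zinc finger gene Zfp281 with 7889 bp, to Ttc28 with 7860 bp and to Iqcf4 with 7824 bp. These 5 peaks lay between 2.83 kb (Zfp281) and 11.2 kb (Iqcf4) from H3K4me1, none of them far from that mark. Over all acetylation-alone peaks the median distance to H3K4me1 was 7364 bp for widths of 200 to 1000 bp and 8238 bp for widths of 4000 bp and over, with values of 7574 to 8274 bp for the widths between.

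The nearest H3K4me1 edge lay at a median of 7994 bp (quartiles 3370 and 18582) from an acetylation-alone peak. It was within 1 kb of 4.45% of the peaks, within 5 kb of 36.3%, within 10 kb of 57.2% and within 50 kb of 93.0%. H3K4me1 flanked 17.7% of the peaks within 10 kb on both sides, 38.4% within 20 kb on both sides and 71.7% within 50 kb on both sides. The median gap between neighbouring H3K4me1 peaks of the mouse list was 12183 bp, and no gap in that list was under 801 bp. H3K4me1 covered a median of 7.97% of the 10 kb on each side and 13.0% of the 50 kb on each side, against 18.7% and 18.3% around distal peaks with H3K4me1, with the H3K27ac peak itself left out of the window in both classes. These distances describe a property that chose the peaks.

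**Figure D2:**
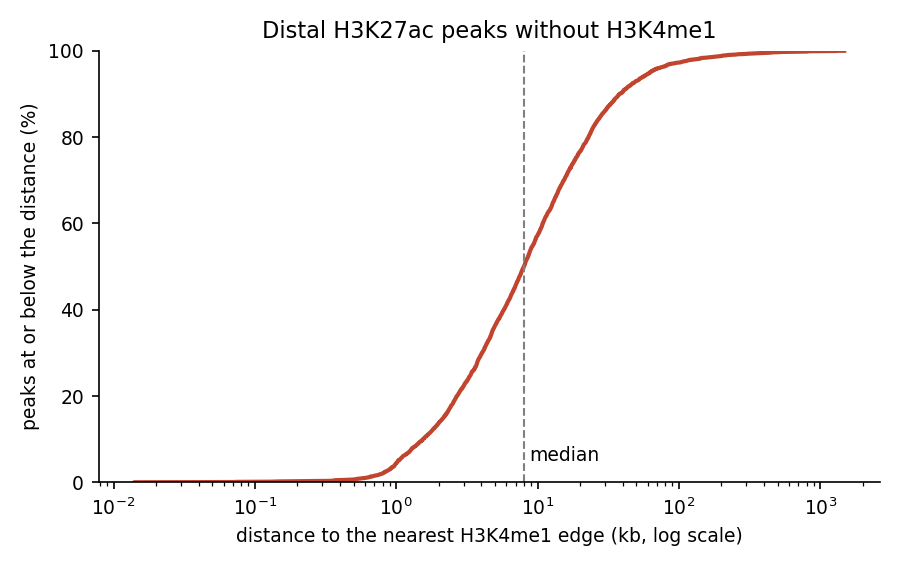
The curve gives the percentage of the 5234 acetylation-alone peaks (y axis) at or below each distance to the nearest H3K4me1 edge (x axis, kb, log scale). The dashed line marks the median of 7994 bp, and the curve passes 57.2% at 10 kb and 93.0% at 50 kb.

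At the border of the rule, the acetylation-alone peaks nearest to H3K4me1 missed it by 14 bp near Marcks, 14 bp near Klf3 and 26 bp near Dusp6. The peaks just outside the rule overlapped H3K4me1 by 7 bp near Acvr1, 16 bp near Sec61b and 23 bp near Itga9. Such narrow overlaps were uncommon, since a median of 93.1% of a distal peak with H3K4me1 was covered by the mark and 8.41% of these peaks were covered by less than 50%. On the TSS side, the acetylation-alone peaks nearest to a start site were 1001 bp from Carf, 1009 bp from Gm33650 and 1018 bp from Vps45. Peaks left out lay at 989 bp from Zfp438, 986 bp from Ski and 977 bp from Gm7791.

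At the other end, 6 acetylation-alone peaks were over 1 Mb from any H3K4me1. Of the 5 farthest, 2 were nearest to the beta-globin gene Hbb-y, and 1 more lay farther upstream of it. Hbb-y encodes the embryonic beta-like globin of primitive red cells, and the beta-globin locus control region lies upstream of it. Around these peaks 0 H3K4me1 peaks lay within 1 Mb, against 7 H3K27ac and 5 H3K4me3 peaks. The first peak, chr7:103858684-103862012, was 3329 bp wide and 7.14 kb upstream of Hbb-y, and the second, chr7:103864187-103867434, was 3248 bp wide and 12.6 kb upstream. A peak of 1330 bp nearest to the olfactory receptor gene Olfr65 followed at chr7:103909255-103910584. The 10 genes of the blood list had 3 acetylation-alone peaks, 2 of them at Hbb-y and 1 at Runx1, a regulator of blood stem cells. The other far peaks were nearest to Ube2dnl1 on chromosome X (2787 bp wide, 1480 kb from H3K4me1), to the protocadherin gene Pcdh17 on chromosome 14 (933 bp, 1080 kb) and, as the sixth, to Nkain2 on chromosome 10 (1057 bp, 1050 kb).

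**Figure D3:**
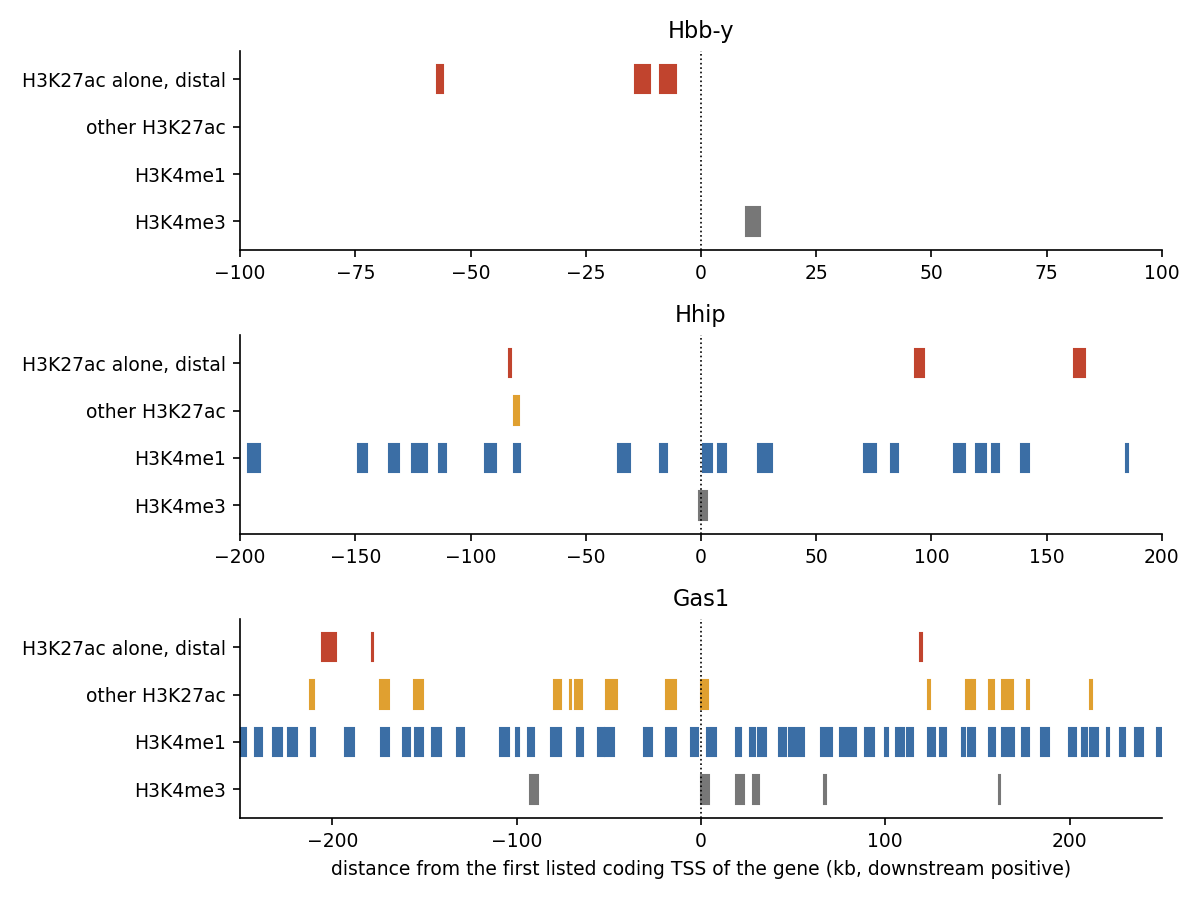
Peaks of the mouse lists around the start sites of Hbb-y, Hhip and Gas1 (x axis, distance from the TSS in kb, downstream positive) are drawn to scale in 4 rows, with acetylation-alone peaks in red, all other H3K27ac peaks in yellow, H3K4me1 in blue and H3K4me3 in grey. The Hbb-y window has 3 H3K27ac peaks, all acetylation-alone, and 0 H3K4me1 peaks, while the 3 red peaks at Hhip and the 3 at Gas1 lie between H3K4me1 peaks.

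By its centre, 47.0% of the acetylation-alone peaks lay in an intron of a protein-coding gene, 6.82% in an intron of a non-coding gene, 2.39% in a coding exon, 1.80% in a 3′ untranslated region, 1.51% in a non-coding exon and 40.2% outside any gene. Coding exons were hit more often than among distal peaks with H3K4me1, by 125 of 5234 against 44 of 4854 (0.906%), a difference of 1.48 percentage points (0.992 to 1.99). The share was higher in each of the 5 width bands from 200 bp to over 4000 bp, and the interval left out 0 in 3 of them. The 5 widest of these peaks were picked after their values were seen. Only their centres were placed in an exon, and the rest of each peak was not sorted by gene part. The exons were those of Primpol, a DNA primase and polymerase (peak of 6472 bp), and Rgs3, a regulator of G-protein signalling (5405 bp). The others were of Rusc2 (5281 bp), Tmem72 (5184 bp) and Gm2115 (5175 bp). Intergenic sequence held 2.41 points fewer of the acetylation-alone peaks than of the distal peaks with H3K4me1 (-4.33 to -0.485), but that order turned at widths of 200 to 1000 bp, where it held 43.4% against 34.5% (difference 8.91, 3.19 to 14.4).

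Distance from TSSs was part of the rule, so its values are given without a test. Of acetylation-alone peaks 41.2% were over 50 kb from every coding TSS, 9.11% over 250 kb and 2.54% over 500 kb, against 42.2%, 8.38% and 1.87% of distal peaks with H3K4me1. The 5 farthest from any coding TSS were 2 peaks upstream of Pcdh20 (2130 kb and 2090 kb away), 1 upstream of Celf4, an RNA-binding protein gene (1860 kb), 1 downstream of Pcdh18 (1610 kb) and 1 downstream of the ephrin gene Efnb2 (1610 kb). All 5 were narrow, from 273 bp to 1283 bp.

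Acetylation-alone peaks were slightly poorer in GC than distal peaks with H3K4me1. Their central 300 bases had a median GC content of 46.7% (quartiles 43.0 and 50.7), against 47.3% (43.3 and 51.0), and a median observed-to-expected ratio of CpG of 0.160 against 0.177. GC exceeded 50% in 27.4% of these windows against 31.0%, a difference of -3.53 points (-5.30 to -1.75). In the 2.75% of acetylation-alone peaks and 1.09% of the others that were under 300 bp wide, the window runs past the peak. Central windows with both GC over 50% and a CpG ratio over 0.6, the usual mark of a CpG island, made up 0.267% of them (14 peaks) and 0.227% of the distal peaks with H3K4me1. The CpG-rich Cd109 window printed above, with a ratio of 0.888, is thus of a rare kind. The printed Hoxa11 window also holds many CpGs, and its ratio is not given here. The quartiles of the ratio over acetylation-alone peaks were 0.0775 and 0.256. The Sox5 window, at 0.420, lay above them, and the Gas1 window, at 0.0782, lay near the lower one. Repeats were more common: 5.41% of the acetylation-alone peaks were soft-masked, that is marked as repeat in the genome file, over more than 50% of their length, against 1.26%, a difference of 4.15 points (3.47 to 4.85). Among the wider 50% of distal peaks the shares were 2.05% and 0.421%, a difference of 1.63 points (1.01 to 2.37). Whether reads in those 283 peaks also map elsewhere was not tested.

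Of 17 short motifs counted on both strands of the central 300 bases, 5 differed with an interval that leaves out 0. TAATTA, the core of LIM and other homeodomain factors, was in 5.69% of acetylation-alone windows and 7.11% of the others (-1.41 points, -2.38 to -0.459), and in 5.29% of 32851 RefSeq promoter windows of the same length. GTAAACA, a forkhead core, was in 4.13% against 5.07% (promoters 3.65%). GGGCGG, bound by SP and KLF factors, was in 3.34% against 4.86% (promoters 35.7%), and AGGGGGC, part of the CTCF motif, was in 3.23% against 4.41% (promoters 10.6%). CCAAT, bound by NF-Y, was more frequent, with 33.5% against 31.2% (2.32 points, 0.490 to 4.14, promoters 37.4%). The other 12 motifs, among them TGACAG (21.6% against 22.1%), GGTGTG (22.4% against 22.1%), AACAAT of SOX factors (14.4% against 14.5%) and AGATAA (14.6% against 14.3%), had intervals that include 0. Motifs overlap in places and a match is a run of letters, not a binding site.

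Acetylation-alone peaks were matched in pig sequence less often than distal peaks with H3K4me1. The central 1000 bases of every peak were searched in the whole pig genome with blastn at an E value of 1e-10 or lower. In peaks under 1000 bp, which make up 21.4% of the acetylation-alone peaks and 7.70% of the others, this window also holds sequence beside the peak, and a match can lie there. A match was found for 1461 of 5234 acetylation-alone peaks (27.9%, 26.7 to 29.1) and 1862 of 4854 others (38.4%, 37.0 to 39.7), a difference of -10.4 points (-12.3 to -8.61). The difference was there in all 5 width bands, each with an interval that leaves out 0. For peaks under 1000 bp, 199 of 272 acetylation-alone matches and 83 of 111 of the others shared a base with the peak itself. Counting only matches that share a base with the peak gave 26.5% against 37.8%, and peaks of 1000 bp or more gave 28.9% against 39.1% (-10.2 points, -12.2 to -8.17). It was wider in intergenic sequence, where 19.4% against 37.7% matched, while in coding exons 118 of 125 against 38 of 44 did (8.04 points, -1.06 to 21.4). Matched stretches had a median identity of 77.7% over 213 bases, against 76.6% over 264 bases. Where the pig annotation held a gene of the same symbol as the nearest mouse gene, that gene lay within 1 Mb of the match for 80.1% of the acetylation-alone peaks and 86.4% of the others.

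Where sequence matched, the pig counterpart carried marks less often. It lay under pig H3K27ac for 62 of 1461 acetylation-alone peaks (4.24%, 3.32 to 5.40) and 252 of 1862 others (13.5%, 12.1 to 15.2), a difference of -9.29 points (-11.2 to -7.41). Pig H3K4me1 lay on 24.4% against 50.8%, a difference of -26.4 points (-29.6 to -23.2). Pig H3K27ac and H3K4me1 peaks cover 1.38% and 13.0% of the bases of the assembled pig chromosomes. A match counted when any of its bases lay in a peak, so these shares are unlike measures and were not compared. The class that lacks H3K4me1 in mouse also had less of it where pig acetylation was present: 41 of 62 pig counterparts under H3K27ac (66.1%, 53.7 to 76.7) carried H3K4me1, against 220 of 252 (87.3%, 82.6 to 90.9), a difference of -21.2 points (-34.1 to -9.65). Pig H3K27ac without H3K4me1 was found at 21 matches (1.44%), against 32 (1.72%) for mouse peaks with H3K4me1. That difference of -0.281 points has an interval that includes 0 (-1.14 to 0.619). Unlike the mouse peaks, the pig matches were not filtered on H3K4me3 or TSS distance. Of the 21, 11 had no pig H3K4me3 and lay within 1 Mb of the gene of the same symbol, and the 32 were not sorted this way. Neither mark was on 74.2% of the pig counterparts, against 47.5%.

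The differences in pig marks were also measured in subsets. In peaks of 1000 bp or more, pig H3K27ac lay on 4.79% of the matches against 14.0% and pig H3K4me1 on 25.4% against 51.3%. Among matches that share a base with the peak the shares were 4.32% against 13.6% and 24.9% against 51.3%. Outside exons pig H3K27ac lay on 4.02% against 13.4% and pig H3K4me1 on 24.4% against 50.6%. Among matches within 1 Mb of the gene of the same symbol the shares were 4.66% against 14.7% and 27.8% against 54.8%. Within width bands the H3K4me1 difference left out 0 in 5 of 5 and the H3K27ac difference in 4 of 5, the exception being 200 to 1000 bp (1.84% against 5.41%, -3.57 points, -9.55 to 0.196). The pig data come from another species at a stage chosen by the study, and the H3K4me1 list rests on the replicates given above.

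**Figure D4:**
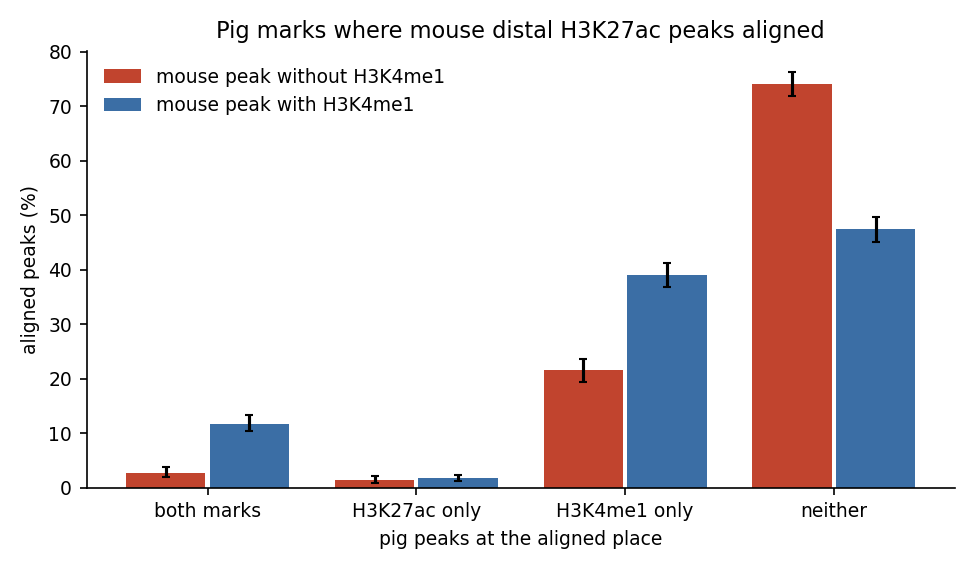
Bars give the percentage of mouse distal H3K27ac peaks with a pig match (y axis) whose pig counterpart carried both marks, H3K27ac only, H3K4me1 only or neither (x axis), for acetylation-alone peaks (red, 1461 matches) and distal peaks with H3K4me1 (blue, 1862), with 95% Wilson intervals. Neither mark is the largest class for both, with 74.2% and 47.5%, and both marks together drop from 11.8% to 2.81%.

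Acetylation-alone peaks with a pig counterpart under H3K27ac included a few at genes of limb patterning, listed after their values were seen. The Sox9 peak printed above, chr11:112630078-112634066, was 3989 bp wide and 150 kb upstream of Sox9, the master regulator of cartilage. Its pig match at chr12:8782237-8782345 of Sscrofa11.1 had 86.4% identity and carried H3K27ac and H3K4me1. The peak at chr7:115431234-115433770 lay 166 kb downstream of the Sox6 TSS, and its match, at 77.5% identity, carried the same pair of marks in pig. The Hoxa11 peak, chr6:52252070-52254509, lay 7.48 kb upstream of Hoxa11, a regulator of the forearm segment, and 2.91 kb from H3K4me3, and its match, at 82.7% identity, carried H3K27ac, H3K4me1 and H3K4me3 in pig. An intronic peak of Il17rd, a feedback inhibitor of FGF signalling, was 3939 bp wide, and its match carried H3K27ac and H3K4me1. In these 4 places mouse H3K4me1 was not far from the peak, between 2.95 kb (Il17rd) and 7.14 kb (Sox6) away.

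Each acetylation-alone peak was given to the nearest coding TSS within 500 kb, which names a neighbour and not a target. In all, 5101 peaks went to 3594 of 21774 coding genes (16.5%), and 133 had no coding TSS in reach. Distal peaks with H3K4me1 went to 3117 genes (14.3%), and 1336 genes had both kinds. Most genes had few: 2579 had 1 acetylation-alone peak, 710 had 2 and 118 had 4 or more. Genes with 4 or more lay in open chromosome, with a median of 869 kb between the coding TSSs on their 2 sides, against 93.4 kb for all coding genes. The promoter of the nearest gene carried H3K27ac for 59.6% of the acetylation-alone peaks and 62.8% of the distal peaks with H3K4me1 (-3.18 points, -5.10 to -1.26), and H3K4me3 for 84.0% against 86.3% (-2.31, -3.71 to -0.899). For the gene whose intron or exon held the peak the values were 65.0% against 66.0% and 91.7% against 92.2%, with intervals that include 0.

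The 15 coding genes with the most acetylation-alone peaks had 6 to 8 each. Nucb2, which encodes a calcium-binding protein, came first with 8 and had 0 distal peaks with H3K4me1. Its peaks ran from 9.87 kb upstream to 250 kb downstream, all intergenic, from 365 bp to 7271 bp wide and from 2.20 kb to 21.3 kb from H3K4me1. The Nucb2 TSS had H3K4me3 and H3K4me1 but no H3K27ac. Lyplal1, a lysophospholipase-like gene, had 7 acetylation-alone peaks and 6 with H3K4me1, and Cmpk2, a nucleotide kinase gene, had 7 and 3.

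Dcdc2c had 7 acetylation-alone peaks, 5 of them intergenic and 2 in its own introns, and 9 with H3K4me1. Hdac9, a histone deacetylase gene, had 7 and 3, and the 7 lay between 2.34 kb and 20.0 kb from H3K4me1, 6 of them in its introns. Gm15319, a predicted gene, had 7 and 1, within 154 kb at chr8:20283781-20437693, where 13 H3K27ac peaks were listed. Repeats covered from 0% to 93.0% of each of the 7 acetylation-alone peaks, and the next highest value was 32.4%. Whether reads in this stretch also map elsewhere was not tested. The other 9 genes had 6 each. Sertad2, Slc10a7 and Tcf4, an E-protein gene, had 3 with H3K4me1 each, the guanine nucleotide exchange factor gene Rapgef5 and the anchoring protein gene Pakap had 4, and the zinc finger gene Zfp521 had 7. Fer, a tyrosine kinase gene, and Trpm3, a cation channel gene, had 1 each, and Sox5 had 6. The acetylation-alone peaks given to Rapgef5 lay 212 kb to 476 kb upstream of its TSS, in introns of Ptprn2 or of a non-coding gene. At 10 of the 15 genes the TSS itself carried H3K27ac.

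Many genes of limb development were nearest to an acetylation-alone peak. Of 134 genes on 9 limb lists 60 (44.8%) had at least 1, beside 16.5% of all coding genes, and 72 (53.7%) had a distal peak with H3K4me1, beside 14.3%. The limb genes had 94 acetylation-alone peaks and 152 with H3K4me1, while all coding genes together had 5101 and 4763. The limb genes also had longer intervals between coding TSSs, a median of 358 kb against 93.4 kb, and the part of this in the counts was not tested. Per gene the median number of acetylation-alone peaks was 0 over the 134 genes.

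**Figure D5:**
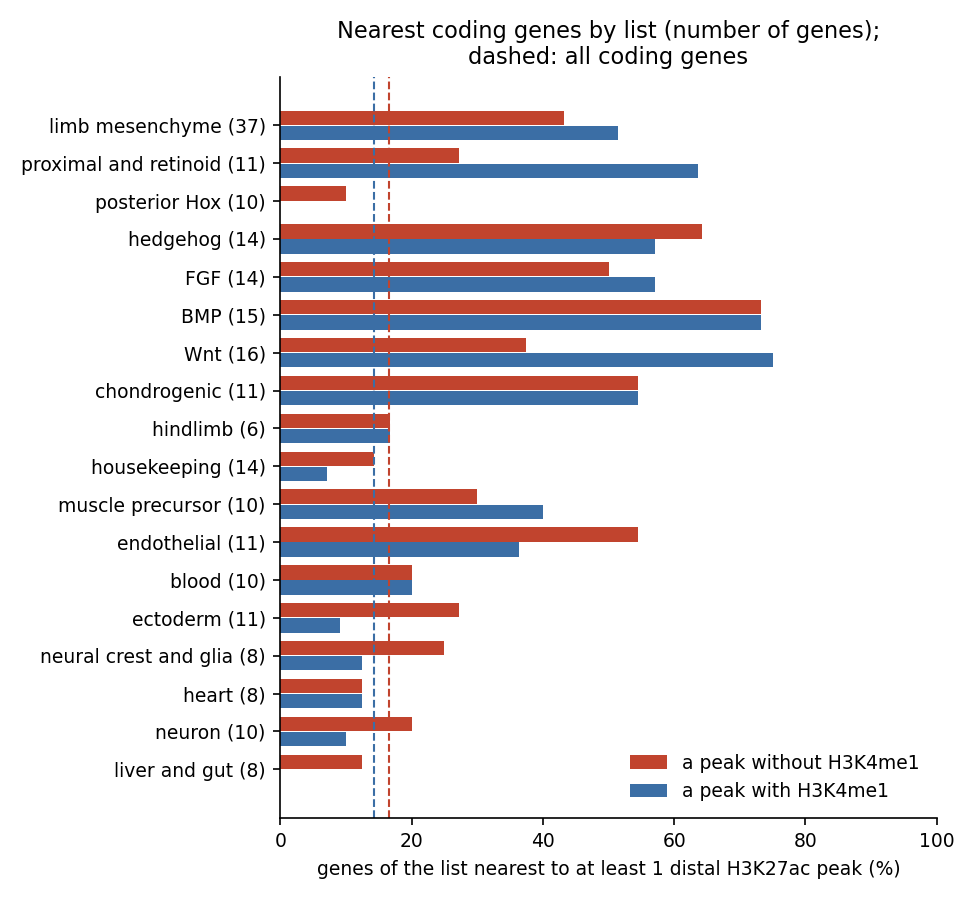
Bars give the percentage of genes of each of 18 lists (y axis, number of genes in brackets) that were the nearest coding gene to at least 1 acetylation-alone peak (red) or distal peak with H3K4me1 (blue) on the x axis. The dashed lines mark all coding genes, at 16.5% and 14.3%, and the Wnt list (37.5% against 75.0%) and the proximal and retinoid list (27.3% against 63.6%) show the widest gaps between the bars.

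In the hedgehog pathway 9 of 14 genes had acetylation-alone peaks and 8 had distal peaks with H3K4me1. Hhip, which binds and holds back hedgehog ligands, had 3 and 1. The Hhip peaks were 4609 bp, 4169 bp and 805 bp wide and lay 164 kb and 94.8 kb downstream and 82.9 kb upstream. Gas1, a hedgehog co-receptor, had 3 and 11, and its widest acetylation-alone peak, chr13:60375623-60383206, covered 7584 bp at 202 kb upstream. Gli3, the main repressor of the pathway in the limb, had 3 and 2, all 3 in its own introns and 1.20 kb to 12.7 kb from H3K4me1. The ligand gene Shh, named after its value was seen, had 1, a peak of 662 bp at chr5:28628024-28628685, 161 kb upstream and 164 kb from the nearest H3K4me1.

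Of the BMP list, 11 of 15 genes had acetylation-alone peaks and 11 had the other kind. Nog, which encodes a secreted BMP inhibitor, had 3 and 0, at 108 kb and 76.7 kb downstream and 41.5 kb upstream, with H3K4me1 4.84 kb to 14.0 kb away. Bambi, a decoy receptor, had 3 and 2, and Smad7, an intracellular inhibitor, had 3 and 3, of 251 bp to 641 bp. The receptor gene Bmpr1a had 2 and 0, and the ligand genes Bmp2 and Bmp4 had 1 and 1 each, all 3 named after their values were seen.

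In the FGF list, 7 of 14 genes had acetylation-alone peaks and 8 the other kind. The feedback inhibitor genes Spry1 and Spry2 had 2 and 0 each, whereas 0 were nearest to Fgf8 and Fgf10, ligands of the ridge and the mesenchyme that were named after their values were seen. In the Wnt list 6 of 16 genes had acetylation-alone peaks and 12 had distal peaks with H3K4me1, with 7 peaks against 26. Fzd1, a Wnt receptor gene, had 2 and 5, the 2 in introns of Cdk14. Ror2, the receptor of Wnt5a, had 1 of 5293 bp and 3.

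The cartilage list had 17 acetylation-alone and 18 other peaks over 6 genes each. Sox5, with 6 and 6, led the limb genes, and its acetylation-alone peaks were 1355 bp to 2913 bp wide and 3.31 kb to 15.6 kb from H3K4me1. Sox6, the partner of Sox5 in chondrocytes, had 4 and 5, and Matn1, a cartilage matrix gene, had 3 and 1, all intergenic. Among 37 limb mesenchyme genes 16 had acetylation-alone peaks and 19 the other kind. Twist1, a bHLH factor of limb mesenchyme, had 3 and 2. The Twist1 peaks lay 33.4 kb, 103 kb and 226 kb downstream, the last 2 in introns of Hdac9, and the first is printed above. Pkdcc, a secreted kinase gene needed for limb bone growth, had 2 and 4.

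Of 11 proximal and retinoid genes 3 had acetylation-alone peaks and 7 the other kind, with Rarb, a retinoic acid receptor, at 2 and 1 and Pbx3, a TALE homeobox gene, at 1 and 2. Of the 10 posterior Hox genes Hoxa11 alone had 1, and 0 had a distal peak with H3K4me1 as nearest gene. Of the 6 hindlimb genes Tbx4 had 1 and 1. The 14 housekeeping genes had 2 and 1, at Ppia and Hprt together, with a median of 39.7 kb between coding TSSs.

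Of 50 genes listed for other cell types of the limb bud, 16 (32.0%) had acetylation-alone peaks and 12 (24.0%) the other kind, with 21 and 24 peaks, beside 16.5% and 14.3% of all coding genes. Their median interval between coding TSSs was 164 kb, against 93.4 kb for all coding genes. Of the 11 endothelial genes 6 had acetylation-alone peaks and 4 the other kind. Cdh5, the cadherin of vessel walls, had 2 and 6, and Fli1, an ETS factor of endothelium and blood, had 1 and 1. In the ectoderm list 3 of 11 genes had them and 1 had the other kind, with Sp8, a factor of the apical ridge, at 2 and 0 and Cdh1, the epithelial cadherin, at 1 and 0. The 2 Sp8 peaks lay in introns of Abcb5. Of the muscle precursor genes Met and Eya1 had 2 and 1 each. Foxd3 of the neural crest list had 1 and 0. Outside the limb, Ryr2 of the heart list had 2 and 1, Dcx and Stmn2 of the neuron list had 2 and 0 and 1 and 2, and Ttr of the liver and gut list had 1 and 0. The shares of these 3 lists with acetylation-alone peaks, 12.5%, 20.0% and 12.5%, lay near that of all coding genes. The lists are small, and the order of the 2 kinds in them was not tested.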

How the data were processed

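Wild-type mouse (E11.5) and pig (day 23) forelimbs were profiled for 3 histone marks in 12 samples. Per the labels and the series' design text, reads were cropped to 50 bp, aligned to GRCm38 or Sscrofa11.1, and called as broad consensus peaks at an irreproducible discovery rate under 0.01. The submitters' processing notes name Trimmomatic 0.39, Bowtie2 2.3.5, SAMtools 1.9 and deepTools 3.5. The program that called peaks was not given in the sources used here. The 6 deposited files hold positions (other values, in bp) with no score, so depth is unknown.

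Peaks were placed on the RefSeq annotation with Python 3.11.15. An overlap needed 1 bp. The 15 mouse H3K27ac peaks on unplaced scaffolds were not used, and 7 of them overlapped neither other mark. Place was read at the peak's centre. Pig matches used blastn 2.17.0 with repeats masked, and the best match counted. The functions for intervals and overlaps were tested on simulated data. The regions, gene lists and motifs were chosen with earlier results of these data known. Genes named are the 15 with the most acetylation-alone peaks, those of the limb lists with 3 or more and the first 2 of each list (ranked by number, then by bases), and those at the 5 widest and the 5 farthest peaks. One gene that the rule names is not reported here. Of the 8 sequences that the rule picked, 4 are printed, and those of Sox9, Hoxa11 and Hbb-y were added after their values were seen. Some BMP and FGF genes and 1 far peak were also named after their values were seen. Alternatives changed the overlap, the TSS distance, the TSSs used, the width, the sequence window, the gene distance, the E value, repeats and, chosen after seeing the data, the query window.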

Additional observations from a re-analysis of the deposited data

How the results depend on the processing

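Of 81 values recomputed under an alternative, 61 stayed within their interval (counts within 1.5 times) and 20 moved. With the wider 50% of distal peaks there were 1955 acetylation-alone peaks, 38.8% of the distal peaks, at a median of 3545 bp, nearest to 1671 coding genes, with 62.1% inside a gene, 36.8% over 50 kb from a coding TSS and 30.8% matched in pig; fewer peaks enter there by construction. Counting H3K4me1 only where it covers 50% of a peak gave 55.9%, a width of 2144 bp and a distance of 7096 bp. Counting H3K4me1 within 1 kb as overlap gave 49.6% and 8545 bp. With TSSs over 5 kb away the distance was 8478 bp and 45.3% lay over 50 kb from a coding TSS, and with over 2.5 kb 42.7% did. GC was 46.2% over the central 1000 bases and over whole peaks. At an E value of 1e-20 the pig matches fell to 19.2%. Leaving out peaks soft-masked over 50%, an alternative chosen after seeing the data, gave 50.8% and 2105 bp.

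The lower shares of pig matches, of pig H3K27ac and of pig H3K4me1, and the higher share in coding exons, kept their sign and an interval without 0 under all 7 definitions of the peaks. No paired analysis was possible because each mark has a single consensus list per species. For the same reason leaving out a replicate was not an option, and with no score a stricter peak threshold was replaced by width. Depth is unknown, so a missing H3K4me1 peak says that none was listed, not that the mark is absent.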

Other observations

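The nearest other H3K27ac peak was itself acetylation-alone for 32.0% of the acetylation-alone peaks, against 26.1% for distal peaks with H3K4me1. It was a distal peak with H3K4me1 for 25.0% against 32.9%, and a peak at a TSS or under H3K4me3 for 43.0% against 40.9%. The class of the neighbour also rests on H3K4me1, which chose the peaks, so these shares are descriptions and carry no test. H3K4me1 covered a median of 13.0% of the 50 kb on each side, against 18.3%, and the part of this in the shares was not tested. Of the 3594 genes with any acetylation-alone peak, 2258 had 0 distal peaks with H3K4me1 and 1336 had both kinds. Over all 21774 coding genes, 3117 (14.3%) had a distal peak with H3K4me1, so having 0 is the usual state of a gene. Genes with 4 or more acetylation-alone peaks and 0 of the other kind numbered 23 of 118. By number they were led by Nucb2 with 8, followed with 5 each by Cpped1, Aurkc, Cd109, which encodes a cell-surface antagonist of TGF-beta signalling, and Sox2, a pluripotency and neural factor whose TSS had H3K4me3 and H3K4me1 but no H3K27ac. Col12a1, a collagen gene, had 4, all 4 with the other kind at 0.

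Of the 21 acetylation-alone peaks whose pig counterpart also carried H3K27ac without H3K4me1, 15 lay within 1 Mb of the gene of the same symbol in pig, and 11 of these had no pig H3K4me3 either. The 11 were nearest to Lrrfip1, Bloc1s5, Pdhb, Snu13, Rusc2, Fggy, Prdm16, Apba2, Arap1, Chd9 and Acad8. Prdm16, a zinc finger regulator of mesenchymal and fat cell fates, had its peak in an intron, 3437 bp wide and 50.6 kb downstream of the TSS, with a pig match of 77.3% identity. The Rusc2 peak, 5281 bp wide with its centre in a coding exon, matched pig over 995 bases at 85.6% identity. The Apba2 peak, also centred in a coding exon, matched over 837 bases at 79.0%.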
